A study of Sus scrofa with 24 samples.

Results

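Described here are 10 genes around the transcriptional coactivators YAP and TAZ in porcine preadipocytes in adipogenic culture: the CCN genes CCN1 to CCN5, the YAP/TAZ target genes ANKRD1, AMOTL2 and AJUBA, and YAP1 and WWTR1, which encode YAP and TAZ themselves. They were taken by symbol from a table of 25462 genes listed by identifier, and each symbol matched 1 of them. The genes were chosen with results of these data known, since CCN2 had been singled out for its fall between days 0 and 2 in subcutaneous cells and for its difference between depots on day 2. Members are therefore described without a test in those comparisons and in those that contain them (BF-0d to BF-8d). Other comparisons that draw on the BF-0d, BF-2d or IMF-2d libraries share them with those of the choice, so their p-values for members are not independent of it. Primary preadipocytes were isolated from 6-day-old Yorkshire piglets, from subcutaneous fat of the back (BF) and from longissimus dorsi muscle as intramuscular fat cells (IMF). At near confluence on day 0 the cells of both depots received IBMX (a phosphodiesterase inhibitor), dexamethasone (a glucocorticoid) and insulin until day 2, insulin alone until day 4, and growth medium until day 8. Each of the 8 groups, named by depot and day (BF-0d, IMF-4d), had 3 libraries of polyadenylated RNA, 24 in all. No untreated cells were followed beyond day 0, so time in culture and medium cannot be told apart.

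CCN proteins are secreted matricellular proteins that bind integrins, proteoglycans and growth factors. CCN1 and CCN2, formerly CYR61 and CTGF, are the most widely used readouts of YAP and TAZ, which enter the nucleus of spread, tense cells, bind the TEAD factors and switch on growth and matrix genes. The Hippo kinases phosphorylate YAP and TAZ and hold them in the cytoplasm. TAZ is known as a coactivator that represses the adipogenic receptor PPARG, and preadipocytes lose spread shape and actin fibres as they become round fat cells.

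The promoters are shown first because TEAD binding is what joins the target genes to the coactivators. In the RefSeq annotation of Sscrofa11.1, the build that the deposited values rest on, the 250 bases before the annotated start of all 10 genes were searched on both strands for the core TEAD motif GGAATG, the AP-1 motif TGANTCA, the CArG box bound by SRF and the TATA box TATAAA. The sequences run 5′ to 3′ towards the gene, with matches in capitals (CATTCC is GGAATG on the other strand). CCN2 (chr1:31674148-31674397, plus strand) is shown for the most TEAD matches among the 10 genes, CCN1 (chr4:130395180-130395429, minus strand) as the other abundant CCN gene, ANKRD1 (chr14:102612858-102613107, minus strand) as a target gene that was nearly silent in these cells, and AMOTL2 (chr13:75507361-75507610, minus strand) as an abundant target gene with no match.
CCN2: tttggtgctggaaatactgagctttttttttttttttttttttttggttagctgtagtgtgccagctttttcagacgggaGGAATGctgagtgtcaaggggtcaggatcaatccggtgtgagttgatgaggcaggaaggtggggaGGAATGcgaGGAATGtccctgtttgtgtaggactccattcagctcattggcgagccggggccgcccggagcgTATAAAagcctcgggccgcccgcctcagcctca
CCN1: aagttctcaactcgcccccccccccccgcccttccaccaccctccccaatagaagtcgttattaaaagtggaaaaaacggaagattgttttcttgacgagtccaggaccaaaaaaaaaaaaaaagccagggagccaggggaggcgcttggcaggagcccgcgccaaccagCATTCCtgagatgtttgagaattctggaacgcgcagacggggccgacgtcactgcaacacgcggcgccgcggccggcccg
ANKRD1: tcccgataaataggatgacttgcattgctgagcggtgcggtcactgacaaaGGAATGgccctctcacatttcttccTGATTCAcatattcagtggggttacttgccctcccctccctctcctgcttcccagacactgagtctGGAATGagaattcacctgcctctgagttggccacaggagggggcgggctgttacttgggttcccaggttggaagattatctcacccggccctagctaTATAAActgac
AMOTL2: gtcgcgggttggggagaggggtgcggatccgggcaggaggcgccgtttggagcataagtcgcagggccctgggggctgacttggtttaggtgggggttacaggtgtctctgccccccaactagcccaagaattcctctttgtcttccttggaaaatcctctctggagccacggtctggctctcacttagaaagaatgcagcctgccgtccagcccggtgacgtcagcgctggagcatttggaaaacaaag

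The CCN2 window held 3 TEAD matches, at -170, -105 and -96 from the gene start, the last pair separated by 3 bases, and a TATA box at -33. Of 19531 promoter windows of the same length, 10.3% held at least 1 TEAD match, 0.758% at least 2 and 0.041% (8 windows) at least 3. ANKRD1 held 2 TEAD matches (-199 and -108), an AP-1 match at -174 and a TATA box at -11. CCN1 (-80), CCN3 (-35) and AJUBA (-241) held 1 TEAD match each, and CCN4, CCN5, AMOTL2, YAP1 and WWTR1 held none of the 4 motifs. AP-1 matches occurred in 5.25% of all windows, CArG boxes in 1.31% and TATA boxes in 9.77%, and no matches overlapped within the 10 windows. A match says only that the letters stand in this window.

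**Figure D1:**
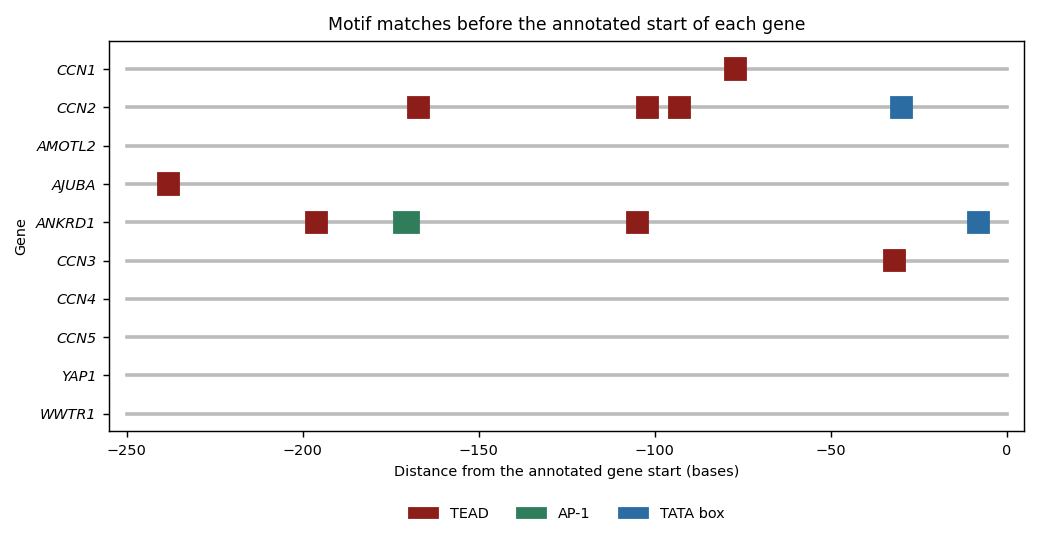
Each grey line is the window of 250 bases before the annotated start of a gene, with the distance from that start in bases on the x axis. Boxes mark matches on either strand to the TEAD motif, the AP-1 motif and the TATA box; CCN2 has 3 TEAD boxes and 5 genes have no box.

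Expression was measured as FPKM, fragments scaled to transcript length and to the mapped fragments of the library, so levels can be compared between genes. The number of fragments behind a value is unknown. FPKM summed to 307967 to 385768 per library, and 9985 to 10858 genes reached 1 FPKM. Replicates correlated across genes at 0.987 or higher in BF-0d and the 4 IMF groups, and at 0.962 at the lowest in BF-2d, 0.965 in BF-4d and 0.969 in BF-8d. The libraries of BF-2d stood apart from each other, replicate 3 from replicate 2 most, and replicate 2 had both the highest summed FPKM and the fewest genes at 1 FPKM of the 24. Of 78 calls of other pathway genes picked by the naming rule, 56 held without each library of their comparison in turn, and of the 27 that use BF-2d all held without replicate 3, 17 without replicate 2 and 13 without any library in turn. The study used 3 piglets, but the labels do not tie the replicate numbers to animals, so p-values measure the spread between these samples, which may be technical. The stromal genes PDGFRA, COL1A1 and LUM had group means of 60.1 FPKM or more in all 8 groups. The defining adipocyte genes ADIPOQ, PLIN1 and LEP were at or near 0 throughout (group means up to 0.111 FPKM), although the labels call the cells adipocytes. The study reports lipid droplets by Oil Red O staining in both depots, fewer in IMF. Of the adipocyte list LPL was the most abundant on day 8 (422 ± 171 FPKM in BF-8d and 120.4 ± 24.3 in IMF-8d, SD, n = 3). FABP4 averaged 3.47 FPKM in BF-8d and 0.404 in IMF-8d. PAX7, MYF5 and MYOD1, which mark muscle precursors, were at or near 0 in every group.

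CCN2, the former CTGF (ENSSSCG00000004192, chromosome 1, 31674398 to 31677697 in Sscrofa11.1), was the most abundant CCN gene before induction in BF and the one whose group means spanned the widest range, from 344 FPKM in BF-0d to 3.41 in BF-8d (n = 3). The 3 BF-0d libraries held 274, 382 and 375 FPKM, which placed the group mean 120th of the 16135 genes tested. The BF-2d libraries held 3.34, 4.76 and 31.3 FPKM, the BF-4d libraries 4.72, 5.25 and 13.8, and the BF-8d libraries 4.64, 2.05 and 3.53. The IMF-0d libraries held 182, 143 and 159.8 FPKM, the IMF-2d libraries 196, 105 and 196, and the IMF-4d libraries 162, 167 and 186. On day 8 those of IMF held 12.5, 9.85 and 14.9 FPKM. The IMF libraries of days 0, 2 and 4 thus overlapped, and those of day 8 lay within the range of BF-2d. In the order of group means, BF-0d stood apart from all others, IMF-4d, IMF-2d and IMF-0d followed well apart from the rest, BF-2d, IMF-8d and BF-4d overlapped, and BF-8d was lowest with libraries apart from those of BF-4d.

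CCN1, the former CYR61 (ENSSSCG00000006940, chromosome 4, 130392404 to 130395179), which encodes an adhesive matrix protein induced early after growth factor stimulation, was likewise highest in BF-0d and lowest in BF-8d by group means. The BF libraries held 226, 252 and 264 FPKM on day 0, 41.8, 40.8 and 67.9 on day 2, 29.8, 46.4 and 43.3 on day 4, and 19.2, 8.21 and 13.1 on day 8. The IMF libraries held 156, 135 and 187 FPKM on day 0, 104, 77.1 and 103 on day 2, 117, 119.9 and 115 on day 4, and 34.3, 24.7 and 38.4 on day 8. Libraries of BF-2d and BF-4d overlapped, as did those of BF-4d and IMF-8d, and all other neighbours in the order of means stood apart. AMOTL2 (ENSSSCG00000011643, chromosome 13, 75490936 to 75507360), an angiomotin-like protein that binds YAP in the cytoplasm and is itself a target gene, held 71.6 to 80.2 FPKM on day 0 in BF and 78.1 to 80.5 in IMF, so that the depots overlapped. It lay at 22.6, 15.7 and 62.8 FPKM in BF-2d, at 11.2 to 16.6 in BF-4d and at 8.25 to 9.70 in BF-8d, against 49.8 to 65.2 in IMF-2d, 71.7 to 75.7 in IMF-4d and 15.9 to 18.5 in IMF-8d. AJUBA (ENSSSCG00000029201, chromosome 7), a LIM protein that holds back the LATS kinases, was low: 2.50 to 3.95 FPKM on day 0 over both depots, 1.12 to 1.49 on day 2, 0.568 to 0.687 in BF and 1.38 to 1.57 in IMF on day 4, and on day 8 between 0.117 and 0.505 in BF and between 1.42 and 1.57 in IMF. ANKRD1 (ENSSSCG00000010461, chromosome 14), a nuclear ankyrin repeat protein that is a standard YAP target in other cells, did not exceed 0.137 FPKM in any library and was not tested.

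**Figure D2:**
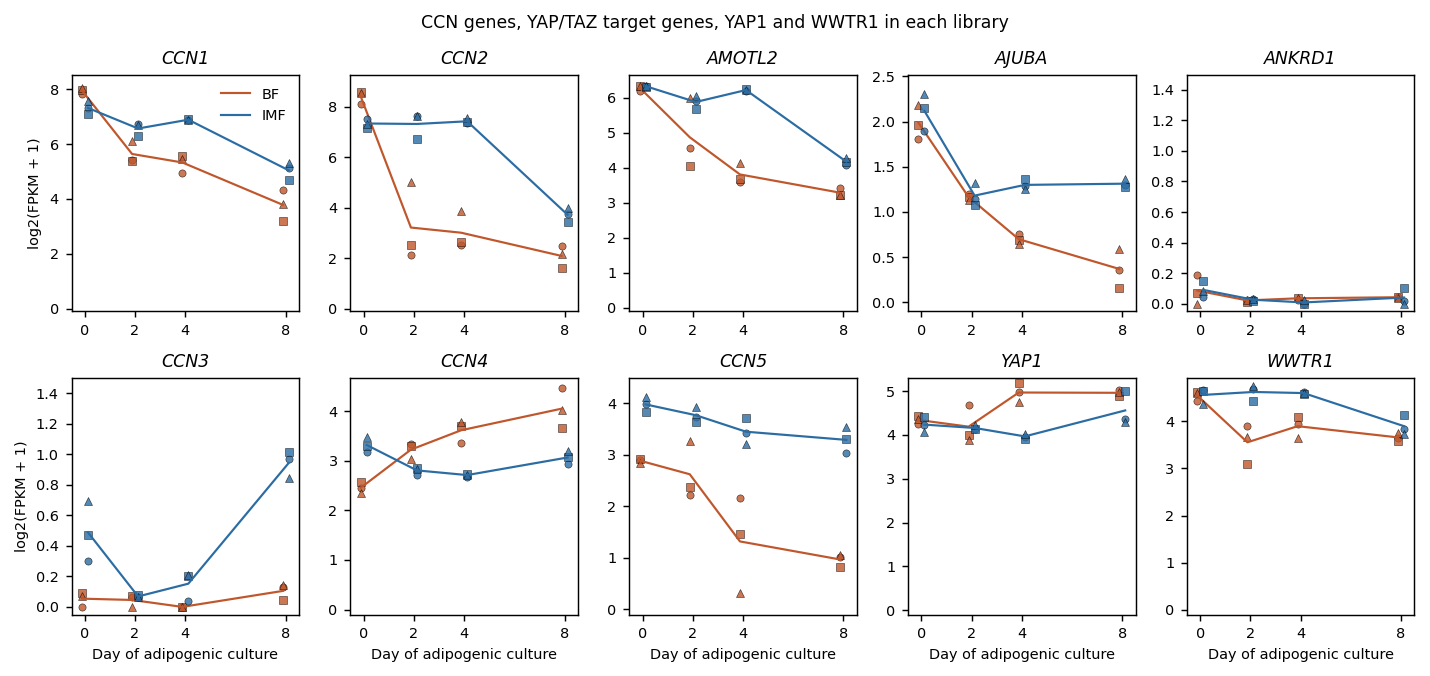
Points are the 24 libraries (circle, square and triangle for replicates 1, 2 and 3), lines join the group means of BF and IMF, the x axis is the day of adipogenic culture and the y axis log2(FPKM + 1), with its own range in each panel. CCN2 and AMOTL2 lie lower in BF than in IMF on days 2 and 4, except AMOTL2 of BF-2d replicate 3, while CCN4 lies higher in BF on those days and ANKRD1 lies near 0 everywhere.

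Between BF-0d and BF-2d, the comparison used in the choice of the genes, the log2 fold change of FPKM + 1 was -5.19 ± 0.51 (SE) for CCN2, -2.32 for CCN1, -1.42 for AMOTL2, -0.99 for WWTR1, -0.82 for AJUBA and 0.77 for CCN4. The mean FPKM of CCN2 was 26.1-fold lower. Of the 9 members with a summed FPKM above 1, 3 were lower by at least 1, beside 4.2% of all genes tested. Without BF-2d replicate 3 the changes were -6.09 for CCN2, -2.55 for CCN1 and -1.98 for AMOTL2, and WWTR1 at -1.05 joined them, so that 4 were lower by at least 1, beside 6.46% of all genes in that fit. Without BF-2d replicate 2 they were smaller, at -4.85 for CCN2, -2.19 for CCN1, -1.01 for AMOTL2 and -0.76 for WWTR1. In that fit 3 members were lower by at least 1, beside 2.71% of all genes. Over days 0 to 8 in BF, 5 members were lower and 1 was higher by at least 1, beside 7.62% and 6.64% of all genes. CCN2 differed by -6.32, a 101-fold difference of means, CCN1 by -4.17, AMOTL2 by -3.002, CCN5 by -1.92 and AJUBA by -1.62, whereas CCN4 differed by 1.59. These comparisons share the BF-0d libraries.

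The same interval in IMF, which shares the IMF-2d libraries with the day 2 comparison of the choice, was tested with limma over all 16135 genes, and a gene was called at an adjusted p under 0.01 and a log2 fold change of at least 1. From IMF-0d to IMF-2d 0 of the 9 members were called, beside 0.787% of all genes, 4 had an unadjusted p under 0.05 and 2 an adjusted p under 0.01. The latter were AJUBA at -0.94 ± 0.12 (adjusted p = 5.26e-05), just short of the fold limit, and CCN3 at -0.42 (adjusted p = 0.00161). CCN2 was at 162 ± 19.6 FPKM (SD, n = 3) before and 165 ± 52.6 after induction, with a 95% interval of the log2 difference from -1.08 to 1.04. From IMF-2d to IMF-4d 0 members were called and 0 had an unadjusted p under 0.05, in a comparison where 0.0372% of all genes were called.

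In IMF the calls came between days 4 and 8, the interval in growth medium. From IMF-4d to IMF-8d CCN2 fell by 3.70 ± 0.51 on the log2 scale (adjusted p = 1.59e-05), a 13.8-fold difference of means. CCN1 fell by 1.84 ± 0.24 (adjusted p = 9.2e-06) and AMOTL2 by 2.05 ± 0.29 (adjusted p = 1.72e-05). The 3 libraries of each group did not overlap for any of these genes. These 3 of 9 members were called lower and 0 higher, beside 3.08% of all genes called lower and 7.25% called in either direction. WWTR1 was at -0.70 ± 0.17 (adjusted p = 0.00271), YAP1 at 0.59 ± 0.18 (adjusted p = 0.0161) and CCN3 at 0.79 (adjusted p = 1.73e-07), each short of the fold limit. With a pseudocount of 0.1 in place of 1, CCN3 passed it (2.33, adjusted p = 1.25e-05), at levels of at most 1.02 FPKM. The 3 calls held in each of the 6 fits without a library of these groups and in the 7 other settings tried. Against IMF-0d, with which it shares the IMF-8d libraries, the same 3 genes were called lower, by 3.61 for CCN2, 2.27 for CCN1 and 2.16 for AMOTL2, beside 4.49% of all genes called lower.

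In BF 1 member was called in each interval after day 2. From BF-2d to BF-4d, which shares the BF-2d libraries with the choice, CCN5 fell by 1.305 ± 0.31 (adjusted p = 0.00529), and 3.35% of all genes were called. The call was lost when the 6 libraries of these groups were fitted alone (adjusted p = 0.232), with no filter on low values (adjusted p = 0.0105) and without any of 3 libraries. Without BF-2d replicate 3 the change was -0.98 (adjusted p = 0.0346), without BF-4d replicate 3 it was -0.81 (adjusted p = 0.0301), and without BF-4d replicate 2 it was -1.38 (adjusted p = 0.0116). AMOTL2 stood at -1.06 ± 0.29 (adjusted p = 0.0114), AJUBA at -0.47 (adjusted p = 0.0084) and YAP1 at 0.78 (adjusted p = 0.00483). AMOTL2 was at -0.50 (adjusted p = 0.0305) without BF-2d replicate 3, and was called without BF-2d replicate 1 (-1.22, adjusted p = 0.0073) or replicate 2 (-1.47, adjusted p = 0.000642), and YAP1 without BF-2d replicate 1 (1.03, adjusted p = 0.000167). From BF-4d to BF-8d CCN1 fell by 1.54 ± 0.24 (adjusted p = 0.000223), and 2.93% of all genes were called. With only the BF-4d and BF-8d libraries fitted, its adjusted p was 0.0621. CCN2 was at -0.92 ± 0.51 (adjusted p = 0.225).

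Whether the depots changed differently between days 4 and 8 was asked with an interaction contrast. Of the 9 members 0 were called with limma, beside 6.39% of all genes, and 4 had an unadjusted p under 0.05. CCN2 differed by -2.78 ± 0.72 (adjusted p = 0.0103) and AMOTL2 by -1.52 ± 0.40 (adjusted p = 0.0121), both just past the limit of 0.01. Over the alternatives the adjusted p ranged from 0.00188 to 0.0297 for CCN2 and from 0.000264 to 0.0308 for AMOTL2. CCN3 differed by 0.69 ± 0.11 (adjusted p = 0.000167), short of the fold limit.

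**Figure D3:**
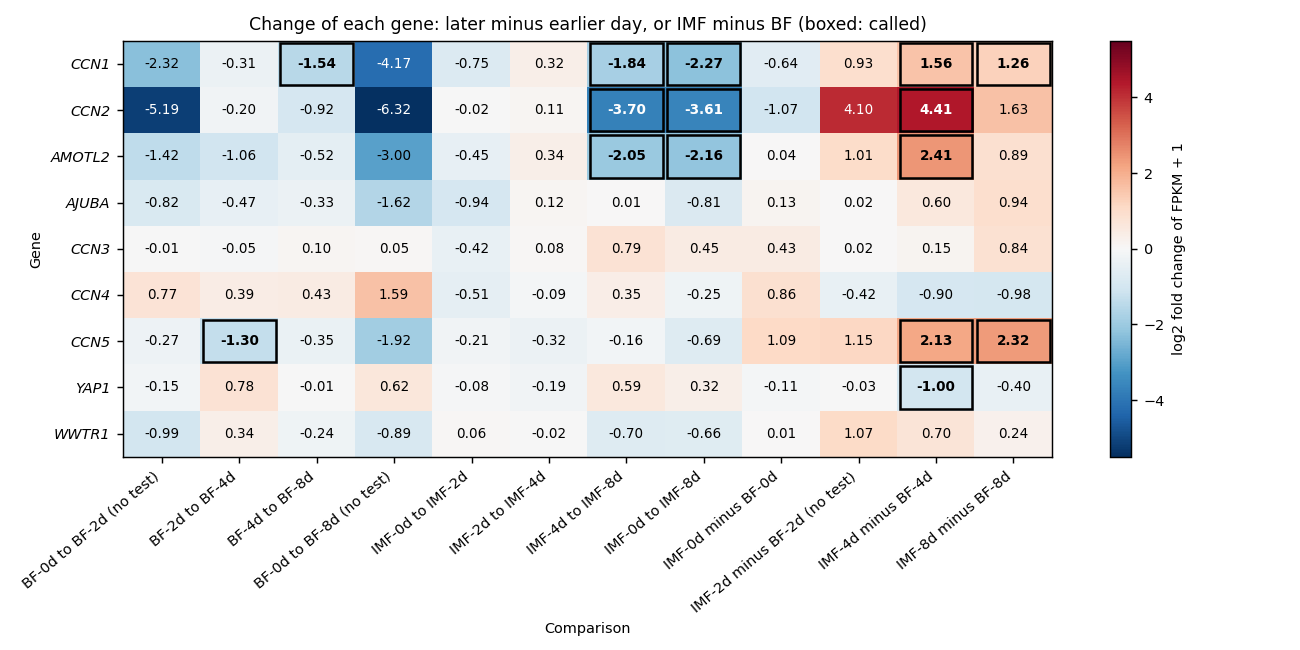
Each cell gives the log2 fold change of FPKM + 1 of a gene (rows) in a comparison (columns), later minus earlier day or IMF minus BF, with red for higher and blue for lower. Boxed values were called, at an adjusted p under 0.01 together with a log2 fold change of at least 1 in size, so an unboxed value may pass the p limit alone. Columns marked no test are those used in the choice of the genes or containing them. CCN2 has the most negative value in the figure, -6.32, and the most positive, 4.41.

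Between depots, no member was called before induction, and several were called after it. On day 0, 0 of 9 members were called with limma, beside 2.58% of all genes, and 5 had an unadjusted p under 0.05. AMOTL2 averaged 77.4 ± 4.998 FPKM in BF and 79.5 ± 1.29 in IMF (SD, n = 3), with a 95% interval of the log2 difference from -0.56 to 0.64. CCN2 was at -1.07 ± 0.51 in IMF against BF (adjusted p = 0.190) and CCN5 at 1.09 ± 0.31 (adjusted p = 0.0220). When the 6 day 0 libraries were fitted alone, both were called, with adjusted p of 0.002 and 0.000194. On day 2, the other comparison used in the choice, CCN2 was higher in IMF by 4.10, CCN5 by 1.15, WWTR1 by 1.07 and AMOTL2 by 1.01, so that 4 of 9 members were higher by at least 1, beside 3.26% of all genes. Without BF-2d replicate 3 these values were 5.001, 1.47, 1.12 and 1.57, and CCN1 was at 1.16, so that 5 members were higher by at least 1, beside 5.45% of all genes in that fit. Without BF-2d replicate 2, CCN2 at 3.76 and CCN5 at 1.02 were the 2 higher by at least 1, beside 2.29% of all genes, and AMOTL2 was at 0.60 and WWTR1 at 0.84.

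On day 4, which was tested, 4 members were called higher in IMF, beside 6.6% of all genes, and 1 was called lower, beside 4.72%. CCN2 was 21.7-fold higher by the means (171 ± 12.4 FPKM in IMF-4d and 7.91 ± 5.08 in BF-4d, SD, n = 3), a log2 difference of 4.41 ± 0.51 (adjusted p = 1.27e-06). That difference ranged from 4.16 to 4.85 over the alternatives, and BF-4d replicate 3, at 13.8 FPKM, raised the BF-4d mean. AMOTL2 was higher by 2.41 ± 0.29 (adjusted p = 1.53e-06), CCN5 by 2.13 ± 0.31 (adjusted p = 1.66e-05) and CCN1 by 1.56 ± 0.24 (adjusted p = 3.74e-05), and in none of these genes did the depots overlap. The call of CCN5 was lost when only the 6 libraries of day 4 were fitted (adjusted p = 0.0110). Its BF-4d libraries held 3.48, 1.78 and 0.251 FPKM, and its difference ranged from 1.63 to 2.91 over the alternatives. YAP1 was the member called lower in IMF, at -1.002 ± 0.18 (adjusted p = 0.000179), at the fold limit itself. It dropped below that limit without BF-4d replicate 2 (-0.90), without IMF-4d replicate 1 (-0.99) and without IMF-4d replicate 2 (-0.98). WWTR1 was at 0.70 ± 0.17 (adjusted p = 0.00196), so the genes of YAP and TAZ leaned opposite ways on this day. AJUBA was at 0.60 ± 0.12 (adjusted p = 0.000412), and at 1.11 (adjusted p = 0.00133) with a pseudocount of 0.1.

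On day 8, 2 members were called higher in IMF, beside 4.31% of all genes. CCN5 was higher by 2.32 ± 0.31 (adjusted p = 1.03e-05) and CCN1 by 1.26 ± 0.24 (adjusted p = 0.00049). The call of CCN1 was lost without BF-8d replicate 2 (0.97, adjusted p = 0.00483) and with only the libraries of day 8 fitted (adjusted p = 0.0133). CCN2 was at 1.63 ± 0.51 (adjusted p = 0.0164) and AMOTL2 at 0.89 ± 0.29 (adjusted p = 0.0199), although the libraries of the depots did not overlap for either gene. With only the libraries of day 8 fitted, CCN2 was called (adjusted p = 0.00156). AJUBA at 0.94 ± 0.12 (adjusted p = 5.53e-06) and CCN3 at 0.84 (adjusted p = 7.59e-08) passed the p limit and fell short of the fold limit, although their means were 4.93-fold and 12.2-fold higher in IMF. With a pseudocount of 0.1 both were called, at 2.10 and 2.57, and AJUBA was also called without BF-8d replicate 3 (1.05).

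The 3 remaining CCN genes had patterns of their own. CCN4, the former WISP1 (ENSSSCG00000005946, chromosome 4, 8078163 to 8110906), a WNT-induced member of the family, stood higher late than early in BF. The BF libraries held 4.09 to 4.95 FPKM on day 0, 7.17 to 9.15 on day 2, 9.29 to 12.8 on day 4 and 11.6 to 21.0 on day 8, and the IMF libraries 8.08 to 10.1, 5.58 to 6.27, 5.37 to 5.69 and 6.67 to 8.12. IMF therefore held more CCN4 than BF on day 0 (a log2 difference of 0.86, adjusted p = 0.000643) and less on days 4 (-0.90, adjusted p = 0.000106) and 8 (-0.98, adjusted p = 6.89e-05), with no overlap of libraries on any of these days and each value short of the fold limit of a call. With a pseudocount of 0.1 the differences passed that limit on day 4 (-1.01) and day 8 (-1.07), as they did without BF-4d replicate 1 (-1.03), BF-8d replicate 2 (-1.18) or IMF-8d replicate 3 (-1.05). CCN5, the former WISP2 (ENSSSCG00000031648, chromosome 17, 47131236 to 47146455), lacks the C-terminal module of the other family members and is known as a factor of uncommitted adipose precursors. It held 13.3 to 16.4 FPKM in IMF-0d and 7.22 to 10.6 in IMF-8d, and 6.21 to 6.55 in BF-0d and 0.766 to 1.09 in BF-8d. The highest BF library of any day, BF-2d replicate 3 at 8.70 FPKM, overlapped with IMF-4d and IMF-8d, and otherwise each IMF library was above each BF library. CCN3, the former NOV (ENSSSCG00000006002, chromosome 4), reached at most 0.103 FPKM in BF and was listed at 0 in all BF-4d libraries. In IMF it held 0.230, 0.387 and 0.617 FPKM on day 0, 0.0437 to 0.0545 on day 2, 0.0294 to 0.157 on day 4, and 0.795, 0.959 and 1.02 on day 8. CCN6, the family member outside the chosen genes, did not exceed 0.251 FPKM in any library.

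Because FPKM is scaled to transcript length, the 5 CCN genes could be summed to show which of them made up the family's transcripts. Before induction the BF libraries summed to 602 ± 78.7 FPKM and the IMF libraries to 346 ± 39.1 (SD, n = 3). It was 77.2 ± 32.8, 60.9 ± 12.1 and 33.9 ± 11.7 in BF on days 2, 4 and 8, and 279 ± 68.5, 304 ± 10.6 and 62.1 ± 10.5 in IMF. CCN2 made up 56.9 ± 2.92% of the sum in BF-0d, 13.7 ± 11.8% in BF-2d and 9.93 ± 0.811% in BF-8d, where CCN4 made up 47.8 ± 3.01%. In BF-2d its share was 27.2% in replicate 3 and 8.11% or less in the other replicates. In IMF the share of CCN2 was 46.9 ± 3.91%, 58.5 ± 5.22% and 56.3 ± 2.31% on days 0, 2 and 4, and 19.9 ± 0.778% on day 8, where CCN1 made up 52.0 ± 4.06%. CCN2 stood above CCN1 in BF-0d, IMF-2d and IMF-4d, with a ratio of their FPKM of 1.38 ± 0.157, 1.72 ± 0.309 and 1.46 ± 0.126, and below it in the other BF groups (0.219 ± 0.211, 0.197 ± 0.108 and 0.254 on days 2, 4 and 8) and in IMF-8d (0.384 ± 0.0180). In BF-2d the ratio was 0.462 in replicate 3 and 0.0799 and 0.117 in the others. In IMF-0d it was 1.03 ± 0.160. These shares are descriptions and were not tested.

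**Figure D4:**
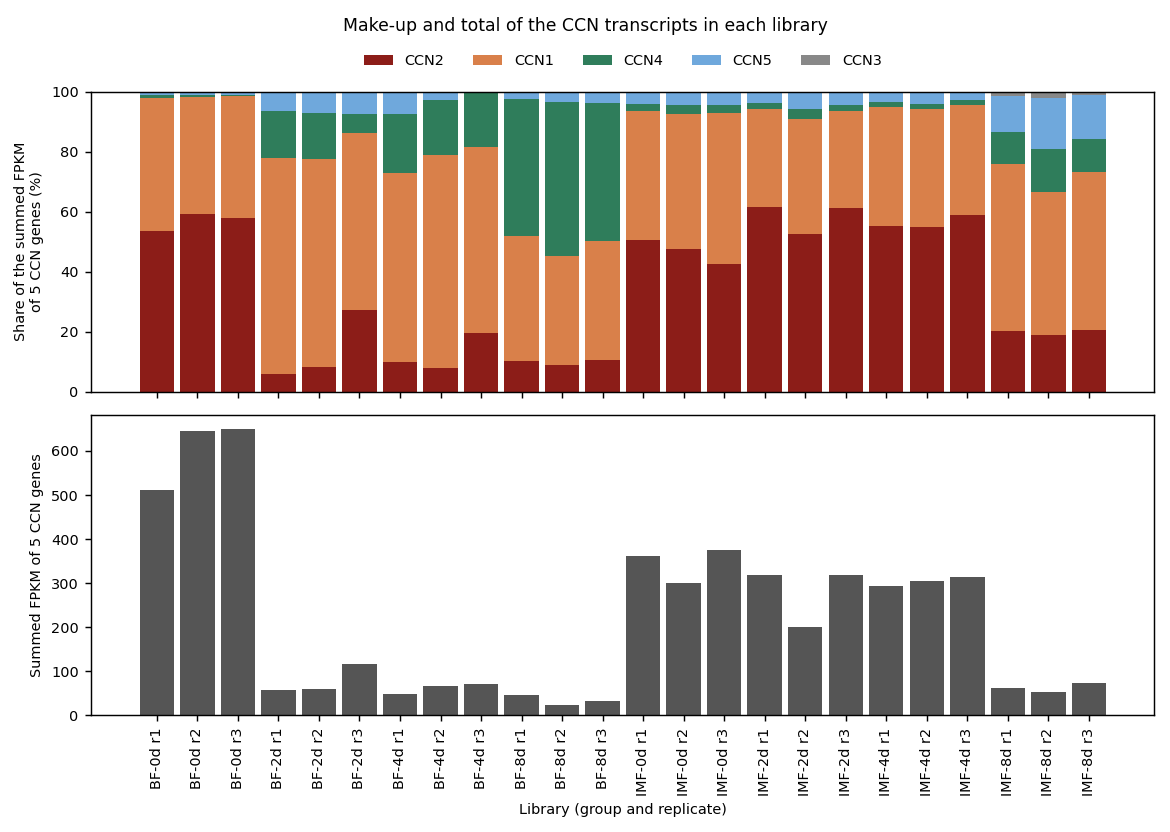
The upper panel gives the share of each CCN gene in the summed FPKM of CCN1 to CCN5 in each library (%), and the lower panel that sum in FPKM. CCN1 and CCN2 fill nearly the whole bar in BF-0d and in IMF on days 0 to 4, and CCN4 takes 45.7 to 51.2% in BF-8d.

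The coactivator genes spanned a narrower range than CCN1, CCN2 and AMOTL2. YAP1 (ENSSSCG00000031429, chromosome 9) held 17.96 to 20.6 FPKM in BF-0d, 24.9, 15.0 and 13.7 in BF-2d, 26.1 to 35.2 in BF-4d and 28.7 to 31.4 in BF-8d, and 15.9 to 20.3, 16.5 to 17.6, 14.1 to 15.4 and 18.7 to 31.2 in IMF on the same days. WWTR1 (ENSSSCG00000011704, chromosome 13), the gene of TAZ, held 20.6 to 23.5 FPKM in BF-0d and 14.0, 7.52 and 11.7 in BF-2d, with no overlap, and 10.9 to 12.4 in BF-8d. In IMF it held 19.7 to 26.1 FPKM over days 0 to 4 and 12.2 to 16.6 on day 8. YAP1 and WWTR1 together averaged 41.7 ± 2.88 FPKM in BF-0d, 28.9 ± 8.72 in BF-2d (38.9, 22.5 and 25.4 in its libraries), 44.6 ± 6.85 in BF-4d and 41.9 ± 1.91 in BF-8d. In IMF they averaged 40.6 ± 4.56, 40.6 ± 3.43, 37.9 ± 0.955 and 37.2 ± 9.22 FPKM. Within that sum YAP1 took 46.3 ± 0.519% in BF-0d, 61.5 ± 6.61% in BF-2d, 68.6 ± 0.803% in BF-4d and 72.2 ± 0.958% in BF-8d. In IMF it took 44.2 ± 1.79%, 41.7 ± 2.56%, 38.7 ± 0.826% and 61.9 ± 2.97%. WWTR1 was thus above YAP1 in the 12 libraries of BF-0d and of IMF on days 0 to 4, and below it in the other 12, without a test. RNA levels say nothing of the phosphorylation or location of either protein.

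**Figure D5:**
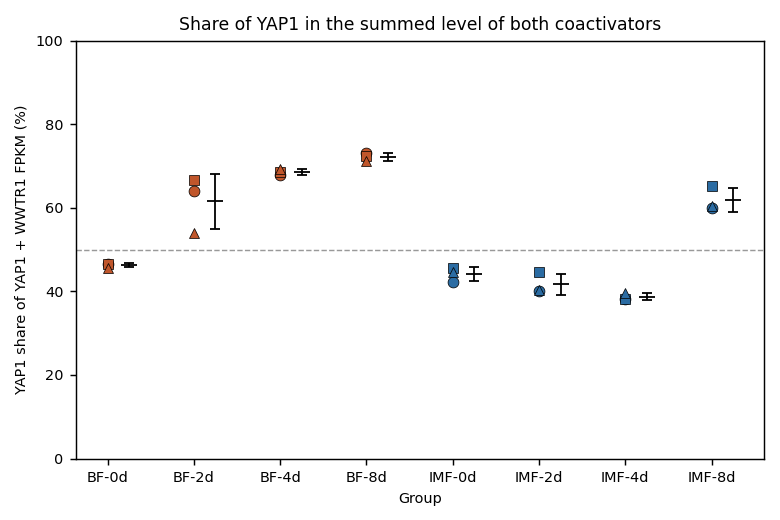
Points give the share of YAP1 in the summed FPKM of YAP1 and WWTR1 (%) in each library, by group, with the mean and SD (n = 3) beside them and a dashed line at 50%. The share is below 50% in BF-0d and in IMF on days 0, 2 and 4, and above it in the other 4 groups.

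Other genes of the pathway came from lists written by hand with earlier results known (LATS2 stands on 2 of them), and are described by counts. Of 16 measured YAP/TAZ readout genes that were not members, 4 fell from BF-0d to BF-2d, among them GADD45A, a stress-induced growth arrest gene (-2.18 ± 0.22, adjusted p = 6.34e-07), and F3, the tissue factor that starts coagulation (-1.93 ± 0.29, adjusted p = 4.34e-05). All genes were called in 6.59% of cases, and the median change was -0.69 over the list and -0.04 over all genes. Without BF-2d replicate 3, 8 of the 16 fell and 1 rose, beside 10% of all genes called. From BF-2d to BF-4d 3 rose and 1 fell, beside 3.35% of all genes called. From IMF-0d to IMF-2d 1 of 16 fell, beside 0.787%, GADD45A by 1.26 (adjusted p = 0.0014). From IMF-4d to IMF-8d 2 fell and 1 rose, beside 7.25%, and GADD45A (from 48.5 ± 2.44 to 7.28 ± 1.16 FPKM, SD, n = 3) and CCDC80, a secreted matrix protein (from 130.4 ± 1.06 to 29.8 ± 0.733 FPKM), were the larger falls (log2 changes of -2.59, adjusted p = 4.1e-08, and -2.09, adjusted p = 8.95e-06). On day 4, 3 of the 16 were higher and 2 lower in IMF, beside 6.6% and 4.72% of all genes. CCDC80 was higher by 3.59 ± 0.28 (adjusted p = 5.87e-09), whereas TGFB2, a ligand that itself induces CCN2, was lower (-2.10 ± 0.43, adjusted p = 0.000554). TGFB2 rose from BF-2d to BF-4d by 2.23 ± 0.43 (adjusted p = 0.00117), opposite to the fall of CCDC80 by 2.29 in the same interval. These changes were 1.75 and -1.77 without BF-2d replicate 3. On day 2, 4 of the 16 were called higher in IMF and 0 lower with limma, beside 2.71% of all genes called higher, with a median difference of 0.44 over the list and 0.07 over all genes. Over days 0 to 8 in BF 4 rose and 2 fell, beside 6.28% and 7.39% of all genes, with CCDC80 (-4.14, adjusted p = 5.28e-10) and GADD45A (-3.90, adjusted p = 8.82e-11) as the larger changes, while TGFB2 rose by 3.34 (adjusted p = 2.63e-06). On day 8, 2 were higher and 2 lower in IMF, beside 4.31% and 2.65%, CCDC80 by 2.00 (adjusted p = 1.5e-05) and TGFB2 by -2.27 (adjusted p = 0.000406). On day 2 AXL, a receptor tyrosine kinase, was higher by 1.87 (adjusted p = 3.79e-05) and GADD45A by 1.302 (adjusted p = 0.000315).

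The 6 measured TEAD and VGLL genes encode the partners of YAP and TAZ on DNA and their competitors for TEAD. Among them VGLL3 and VGLL4 were called in opposite directions in 1 interval between successive days in each depot. In IMF the means of both rose from day 0 to day 2 (VGLL3 from 27.8 to 35.4 FPKM, VGLL4 from 8.33 to 13.2). Both were lower again on day 4 (32.7 and 10.6 FPKM). From BF-0d to BF-2d VGLL3 fell by 1.18 ± 0.30 (adjusted p = 0.00452), a call lost without BF-2d replicate 2 (-0.67, adjusted p = 0.0288) or any 1 of the BF-0d libraries, and VGLL4, a repressor that competes with YAP for TEAD, rose by 1.29 ± 0.22 (adjusted p = 0.000182). From IMF-4d to IMF-8d VGLL3 fell by 1.39 ± 0.30 (adjusted p = 0.0012) and VGLL4 rose by 1.29 ± 0.22 (adjusted p = 0.00016). VGLL4 averaged 10.8 FPKM in BF-0d and 41.3 in BF-8d, and 8.33 in IMF-0d, 10.6 in IMF-4d and 27.3 in IMF-8d. TEAD4 averaged 3.46 FPKM in IMF-4d and 0.849 in BF-4d, a log2 difference of 1.27 ± 0.20 (adjusted p = 4.3e-05). TEAD2 was higher in BF than in IMF on day 2 (-1.09 for IMF minus BF, adjusted p = 0.000164), a call lost without BF-2d replicate 2 (-0.87). VGLL4 was lower in IMF on day 4 (-1.78, adjusted p = 2.72e-06). By interval, calls numbered 3 of 6 for BF-0d to BF-2d, beside 6.59% of all genes, and 3 of 6 for IMF-4d to IMF-8d, beside 7.25%. In the other 4 intervals between successive days 0 of 6 were called with limma.

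Of the 15 Hippo kinases and scaffolds 2 fell from BF-0d to BF-2d, beside 6.59% of all genes called, FRMD6 by 1.22 (adjusted p = 0.000376) and WWC2 by 1.06 (adjusted p = 0.00019), both scaffolds that activate the kinase cascade. Without BF-2d replicate 2 both were short of the fold limit (-0.89 and -0.78). In IMF 1 fell from IMF-4d to IMF-8d, beside 7.25%, FRMD6 by 2.01 (adjusted p = 1.34e-06). FRMD6 averaged 47.3 ± 2.40 FPKM in IMF-4d, 16.5 ± 0.857 in BF-4d and 11.2 ± 2.60 in IMF-8d, and on day 4 it was higher in IMF by 1.46 (adjusted p = 3.13e-05). MOB1B, a partner of the LATS kinases, was lower in IMF on that day (-1.01, adjusted p = 0.000394), a call lost without BF-4d replicate 1 or IMF-4d replicate 1 (-0.97 each). For FRMD6 the interaction of depot and interval over days 4 to 8 was called (-2.06 ± 0.32, adjusted p = 0.000156). Of 5 further angiomotin and LIM genes, AMOT fell from IMF-4d to IMF-8d by 1.04 (adjusted p = 0.000777), or by 0.91 without IMF-8d replicate 1, short of the fold limit. SRF, the factor of the CArG box, fell in BF over days 0 to 8 by 1.36 (adjusted p = 3.61e-07), from 14.9 to 5.16 FPKM.

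On the side of the CCN receptors, 9 of 11 listed genes were measured (LRP1 and SDC4 were not analysed here). The integrin subunits ITGAV and ITGB3, which together form a receptor of CCN1 and CCN2, fell from BF-0d to BF-2d by 1.45 (adjusted p = 0.000441) and 1.34 (adjusted p = 0.00341), while 1 of the 9 genes rose, beside 6.59% of all genes called. The call of ITGB3 was lost without BF-2d replicate 1 or 2 or any 1 of the BF-0d libraries (adjusted p of 0.033 at most). ITGB3 was higher in IMF than in BF on days 2, 4 and 8, by 1.86, 2.07 and 1.67 (adjusted p = 0.000367, 3.7e-05 and 0.000466). ITGB5, another beta subunit that pairs with ITGAV, rose from IMF-4d to IMF-8d by 1.16 (adjusted p = 0.000347) and fell from BF-4d to BF-8d by 1.34 (adjusted p = 0.000249), and this difference between depots was called (2.50 ± 0.30, adjusted p = 1.35e-05). LRP6, a WNT coreceptor that binds CCN2, fell from IMF-4d to IMF-8d by 1.39 (adjusted p = 0.0056), and of the 6 libraries of these groups IMF-8d replicate 2 was the only one whose removal kept the call. Among 7 genes known to induce or restrain CCN2, TGFB1 rose from BF-2d to BF-4d by 1.15 (adjusted p = 0.00225), the 1 call of the list there, beside 3.35% of all genes. It rose by 1.295 without BF-2d replicate 3, and the call was lost without BF-4d replicate 2 (1.04, adjusted p = 0.0129) or replicate 3 (0.84, adjusted p = 0.0158). The CCN2 change from BF-2d to BF-4d was -0.20, and 0.69 without BF-2d replicate 3. SMAD7, the inhibitory SMAD of TGF-beta signalling, rose from BF-0d to BF-2d by 1.03 (adjusted p = 1.48e-05, but 0.86 and below the fold limit without BF-2d replicate 1) and fell from BF-4d to BF-8d by 1.15 (adjusted p = 1.2e-05). On day 4 its IMF minus BF difference was -1.19 (adjusted p = 1.2e-06). TGFB3 fell from BF-4d to BF-8d by 1.15 (adjusted p = 0.00592 with limma), so that 2 of the 7 fell there, beside 2.93% of all genes called. On day 8 TGFB3 was higher in IMF by 1.31 (adjusted p = 0.000916). EDN1 was lower in IMF by 1.70 (adjusted p = 0.00863), at 0.206 to 9.41 FPKM in BF-8d. Of all genes 4.31% were called higher and 2.65% lower. On day 2 TGFBR1 was higher in IMF by 1.04 (adjusted p = 0.00325), a call lost without BF-2d replicate 2 (0.78).

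Markers of cell type ran beside these results. The summed FPKM of 6 measured stromal genes (dominated by COL1A1 and COL1A2) lay between 11966 and 13128 in BF-0d, 5389 and 11153 in BF-2d, 2851 and 4191 in BF-4d, and 3308 and 3667 in BF-8d. In IMF it lay between 12094 and 12559 on day 0, 10428 and 11639.6 on day 2, 10072 and 10333 on day 4, and 5809 and 6659 on day 8. DCN averaged 1004, 1045, 597 and 497 FPKM in BF on days 0, 2, 4 and 8, and 777, 1143, 1373 and 929.8 in IMF. PDGFRA averaged 77.0, 298, 342 and 228 FPKM in BF and 60.1, 105, 144 and 226 in IMF on the same days, and PDGFRB 135, 155, 199 and 182 in BF. LUM averaged 262, 294, 249 and 328 FPKM in BF, and 146, 271, 249 and 136 in IMF. The genes of this list thus did not move together. The summed FPKM of 8 adipocyte genes, mostly LPL in BF from day 4 and in IMF on day 8, was 9.16 to 10.9 in BF-0d, 23.1 to 93.4 in BF-2d, 182 to 318 in BF-4d and 281 to 622 in BF-8d, against 2.79 to 3.67, 5.18 to 7.64, 11.4 to 14.3 and 97.2 to 143 in IMF. PPARG and CEBPA did not follow LPL in BF. PPARG averaged 3.003, 2.76, 1.58 and 0.973 FPKM in BF on days 0, 2, 4 and 8, and CEBPA 2.26, 9.37, 4.02 and 2.35. BF-2d replicate 3, the library of its group with the highest CCN2 and AMOTL2, also had the lowest LPL (6.71 FPKM) and the highest COL1A1 (5072 FPKM). The muscle and pericyte gene DES was at 37.0 ± 7.91 FPKM in IMF-0d and at 4.68 ± 0.190 in BF-0d, while the muscle factors MYF5 and MYOD1 were listed at 0 in all 24 libraries. Pericyte and smooth muscle genes (6 measured) summed to 7.28 to 61.9 FPKM in BF and 21.2 to 102 in IMF, over all days. They did not move together: in IMF RGS5 averaged 1.16 FPKM on day 0 and 69.6 on day 8, and CSPG4 29.3 and 5.74. In BF RGS5 averaged 0.0481 FPKM on day 0 and 32.6 on day 4. The 5 measured endothelial genes summed to at most 5.18 FPKM and the 6 immune genes to at most 19.0. The part of cell make-up in the results was not tested, and in bulk RNA fewer cells of a type and less RNA per cell cannot be told apart.

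The genes whose log2(FPKM + 1) was most like that of each member across the 24 libraries were picked from the genes with a symbol and a group mean of at least 5 FPKM (7554 other genes, or 7555 for AJUBA, which is itself below that level). The libraries share depots and days, so the r values are descriptions. For CCN2 they were RIMKLB (r = 0.977), GAB1, an adaptor of receptor kinases (0.974), DAPK3, a kinase of the actomyosin system (0.968), TMEM200A (0.968) and ST8SIA1 (0.967). For AMOTL2 they were ACTN1, the actin crosslinker alpha-actinin (0.982), and again GAB1 (0.980). CCN1 was closest to GADD45A (0.971), which stands on the readout list, and RUFY1 (0.958), and CCN5 to LEPROT (0.961) and CENPH (0.957). CCN4 was closest to NOTCH1 (0.896) and P2RY2 (0.875), AJUBA to KIAA1614 (0.937) and SDC2 (0.935), YAP1 to PTPRJ (0.937) and FUBP1 (0.926), and WWTR1 to PDE5A (0.955) and CKAP5 (0.954).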

How the data were processed

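Polyadenylated RNA of 24 libraries (8 groups of 3) was sequenced by the authors, and the deposited values are FPKM per gene, made with StringTie 1.3.4d on Sscrofa11.1 with Ensembl annotation, per the labels and the study's methods. FPKM carry no counts, so the DESeq2 1.6.3 test named in the submitters' processing notes could not be run. The number of fragments behind each value is unknown, and the sequencing yields that the study reports were not used here. Of 25462 genes, 16135 with a summed FPKM above 1 were tested with limma 3.58.1 in R 4.3.3 on log2(FPKM + 1), with 1 mean per group, all 24 libraries in the fit, and empirical Bayes moderation (trend, robust). Calls needed an adjusted p (Benjamini-Hochberg, over all genes tested) under 0.01 together with a log2 fold change of 1 or more in size. Fold changes on this scale understate those of low genes. Fold differences of means are ratios of mean FPKM.

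The members and gene lists were chosen with earlier results of these data known. Symbols, which the files do not pair with the identifiers, came from a reference table (14815 of 21271 Ensembl identifiers had one). Named genes were all members, CCN6, and of each list the up to 2 called genes of a comparison with the largest absolute log2 fold change and at least 1 FPKM in the higher group. Likeness of pattern was Pearson's r over 24 libraries, with the 5 highest genes given for CCN2 and the 2 highest for the other members with a group mean of at least 1 FPKM. Positions and promoters came from RefSeq. Protein sequences were not analysed here. Alternatives were another pseudocount (0.1), other filters and scalings, a replicate block, fits of the compared libraries alone and fits without each library. The test was checked on simulated data, and 0 libraries were identical.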

Additional observations from a re-analysis of the deposited data

Results flagged for a closer look

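For 16 combinations of a gene of the pathway lists and an interval, the change over time differed between the depots by the interaction contrast of limma. The CCN and target genes were tested in this way over days 4 to 8 alone, with 0 called. Values are the log2 change in IMF minus that in BF. Over days 0 to 2 F3 differed by 2.57 (adjusted p = 0.000715), FRMD6 by 1.65 (adjusted p = 0.00283), TEAD2 by -1.18 (adjusted p = 0.00481) and NT5E, an ectonucleotidase of stromal cells, by -1.11 (adjusted p = 0.00309). Over days 2 to 4 CCDC80 differed by 2.39 (adjusted p = 0.000946) F3 by -1.83 (adjusted p = 0.00652) and NT5E by -1.40 (adjusted p = 0.00069). Without BF-2d replicate 3 the first 4 were 2.88, 1.97, -1.45 and -1.33, and CCDC80 and F3 over days 2 to 4 were 1.87 and -2.14, and each was still called. Without BF-2d replicate 2 the calls of TEAD2 over days 0 to 2 (-0.95, adjusted p = 0.0113) and of F3 over days 2 to 4 (-1.76, adjusted p = 0.0141) were lost. Over days 4 to 8 ITGB5 differed by 2.50, TEAD2 by 1.45 (adjusted p = 0.000364), NT5E by 1.20 (adjusted p = 0.000683), opposite to its earlier sign, and VGLL4 by 1.22 (adjusted p = 0.00984). In the same interval FRMD6 differed by -2.06, the receptor tyrosine kinase AXL by -1.73 (adjusted p = 0.00244), CCDC80 by -1.59 (adjusted p = 0.00713) ZYX, the focal adhesion protein zyxin, by -1.35 (adjusted p = 0.00262) and ASAP1 by -1.01 (adjusted p = 0.00163). Over days 0 to 2 NT5E lost its call without IMF-0d replicate 1 or IMF-2d replicate 3, and FRMD6 without BF-0d replicate 2 or IMF-0d replicate 3 (adjusted p of 0.0103 to 0.0112). The calls of CCDC80 and VGLL4 over days 4 to 8 were lost without most single libraries (adjusted p up to 0.0199 and 0.0281). Intervals that follow each other share the libraries of the day between them, so the opposite signs of F3, CCDC80 and NT5E in neighbouring intervals are not independent.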

How the results depend on the processing

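The 10 counts of members called were recomputed under 7 other settings and without each library. From BF-2d to BF-4d, where 1 member was called, the count was 0 with no filter on low values and with only the libraries compared, 2 with a stricter filter, with median ratio scaling and with quantile normalization, and 0 to 3 when a library was left out. From BF-4d to BF-8d it was 0, against 1, with only the libraries compared. With a pseudocount of 0.1 it was 2, against 0, from IMF-0d to IMF-2d, 1, against 0, between depots on day 0, and 5, against 2, on day 8. It also brought CCN3 past the limits from IMF-4d to IMF-8d (2.33), AJUBA from IMF-0d to IMF-8d (-1.12), and AJUBA (1.11) and CCN4 (-1.01) between depots on day 4. From IMF-0d to IMF-2d it was 0 to 1 without a library, 1 without IMF-0d replicate 1 or IMF-2d replicate 3, each time by AJUBA. Between depots on day 0 it was 2 with only the libraries compared. For the interaction over days 4 to 8, where 0 were called, it was 1 with the stricter filter, 2 with median ratio scaling, quantile normalization and only the libraries compared, and 0 to 2 without a library (2 without BF-4d replicate 3, 1 without BF-8d replicate 2).

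The sign of CCN2 from BF-2d to BF-4d (-0.20) reversed to 0.69 without BF-2d replicate 3 and to 0.0451 without BF-4d replicate 1 (range -0.76 to 0.69), and that of CCN5 from BF-4d to BF-8d (-0.35) to 0.0709 without BF-4d replicate 1 (range -0.85 to 0.0709). CCN4 passed the fold limit between depots with median ratio scaling (-1.05 on day 4, -1.12 on day 8) and quantile normalization (-1.04 and -1.05). Median ratio scaling moved the higher genes' share among all calls from 61.0% to 75.1% (BF-4d to BF-8d), 57.5% to 69.7% (IMF-4d to IMF-8d), 45.97% to 58.7% (BF-0d to BF-8d), and, between depots, from 57.3% to 43.3% on day 2, 58.3% to 48.2% on day 4 and 62.0% to 48.5% on day 8. Fits of the lists without BF-2d replicate 3 were added after seeing the data: beside the readouts given above, ZYX and SRF were then called lower from BF-0d to BF-2d, as were TAOK3 (Hippo list, 3 calls against 2) and ITGA6 (receptors, 4 against 3), beside 10% of all genes, against 6.59%. On day 2 the receptor list had 5 calls, against 2, and the Hippo list 2, against 1, beside 7.98% of all genes, against 4.74%. From BF-2d to BF-4d ITGA6 was called as well, beside 2.51% against 3.35%. Fits without BF-2d replicate 2, and of the named pathway genes without each library, were added in the same way. The cause of these shifts was not tested.

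With the replicate number as a replicate block, the count was 2, against 1, from BF-2d to BF-4d and 2, against 0, for the interaction, and CCN2 was called between depots on day 8 (adjusted p = 0.00669 with limma). As deviations from their group means, same-numbered libraries correlated over 0.1 in 7 of 36 pairs (r from -0.25 to 0.46). In 0 of 12 comparisons did every pair do so. With 3 libraries in a group this check cannot decide whether the numbers mark the same animals.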
